A study of Mus musculus with 22 samples.

Results

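Messenger RNA levels in control cells of the BV2 microglial line were compared with those in primary bone marrow derived macrophages. The comparison takes in every gene symbol of the expression table with a transcript of at least 200 bases (the transcript with the highest mean level standing for the symbol) and a level of at least 1 RPKM (reads over transcript length and library size) in at least 2 of the 6 libraries. That left 10626 genes of 23953 symbols in the table, and of the 22736 with a transcript long enough. The 6 libraries belong to a mouse series of 22 samples, 10 of them RNA, on mutant huntingtin in microglia. BV2 is a mouse microglial line immortalised with a retrovirus that carries v-raf and v-myc. All 4 BV2 libraries came from cells transduced with the lentiviral vector pCDH, which carries a CMV promoter for the insert and a puromycin resistance gene. In 2 of them the vector was empty, and in the other 2 it expressed Nwt, an N-terminal fragment of human wild-type huntingtin with 15 glutamines, so neither pair is untransduced. Each construct has a library at 24 h and a library at a second time, which the column headers and the labels give differently, so no order of the times is assumed. The macrophages were grown from bone marrow in medium conditioned by L cells, which supply macrophage colony-stimulating factor (M-CSF), whereas BV2 cells were kept in medium with serum and no such supplement named. The wild-type macrophage library came from Q7/7 mice, which carry 7 glutamines in both huntingtin alleles, and the mutant library from Q175/175 mice, which carry 175 in both. No strain, sex or age is used here, and whether libraries are separate cultures or animals is not labelled, so the p-values rest on a spread between these 6 libraries that may be technical.

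Macrophages and microglia are both tissue phagocytes of the myeloid lineage. Their identity rests on the ETS factor PU.1, encoded by Spi1, with C/EBP factors, and their survival depends on signalling through the M-CSF receptor. Cultured macrophages keep a low tonic interferon signal that holds antiviral genes at a readable level, and they carry a broad set of pattern receptors, Fc receptors, lysosomal enzymes and chemokines. A line selected for growth is known to favour ribosome production, amino acid supply and nucleotide synthesis.

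The libraries differed in depth and in how their reads were spread. The steps between the lowest RPKM values implied 11.1 to 14.0 M reads for the BV2 libraries and 30.3 and 47.8 M for wild-type and mutant macrophages. Transcripts of named genes held 32.5% to 34.3% of the BV2 reads and 48.4% and 50.3% of the macrophage reads. Depth and this share split exactly by cell type, so their part cannot be told apart from it. Because RPKM divides by all reads of a library, the gap in the share moves every gene, and each call is therefore also given under median centring, quantile normalization and RPKM scaled to the reads on gene transcripts alone. A call that kept its direction under RPKM and those 3 scalings is said below to hold under all 4 scalings. Within groups the median absolute log2 difference was 0.07 between constructs, 0.30 between the times in BV2 and 0.26 between the macrophage genotypes, against 0.84 between the cell types. A difference of 1 or more was reached by 0 genes between constructs, 678 between times, 105 between genotypes and 4501 between the cell types. Values are given for BV2 in a fixed order (empty vector at 24 h, empty vector at the second time, wild-type fragment at 24 h, wild-type fragment at the second time) and for macrophages wild type and then mutant. Differences are BV2 minus macrophages after log2(RPKM + 1), a scale that shrinks the change of low genes, with the standard error (SE), and p-values are limma's with Benjamini-Hochberg adjustment over the 10626 genes.

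Spi1, the gene of the lineage factor PU.1, did not pass the test between BV2 cells and macrophages with all 6 libraries in the fit. Of all genes tested 24.2% were higher and 41.4% lower, and the lists below stand beside those shares. Of the interferon-stimulated genes listed, 34 of 35 were lower in BV2 cells, and most tested members of the lists of Toll-like receptors, chemokines and their receptors, Fc and complement receptors and integrins were lower too. Genes for ribosome assembly and for arginine and polyamine metabolism were mostly higher, and those for serine and one-carbon supply were rarely lower. By limma 2574 genes were higher in BV2 cells and 4402 lower at an adjusted p under 0.05, which is 24.2% and 41.4% of the genes tested. Of the calls 36.9% were higher under RPKM, 50.6% under median centring (3599 higher and 3507 lower), 48.4% under quantile normalization (3353 and 3575) and 57.0% when scaled to reads on gene transcripts (3911 and 2950). The median difference over all genes was -0.29, and the scalings moved it by 0.30, 0.26 and 0.45, so a small difference is read relative to that. Calls that held under all 4 scalings came to 2550 higher (24.0%) and 2933 lower (27.6%), 606 and 937 of them by at least 4-fold (2 on the log2 scale), and 0 genes were called in opposite directions under different scalings. The values of the 4 BV2 and the 2 macrophage libraries did not overlap for 2955 genes higher (27.8%) and 4932 lower (46.4%). The level filter bears on these counts, since 726 genes passed it through the macrophage libraries alone, 713 of them called lower, and 959 through BV2 libraries alone, 855 of them called higher. Of the 8941 genes at 1 RPKM or more in some library of each cell type, 1719 were higher and 3689 lower. The median SE was 0.19 (0.12 to 1.06).

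**Figure D1:**
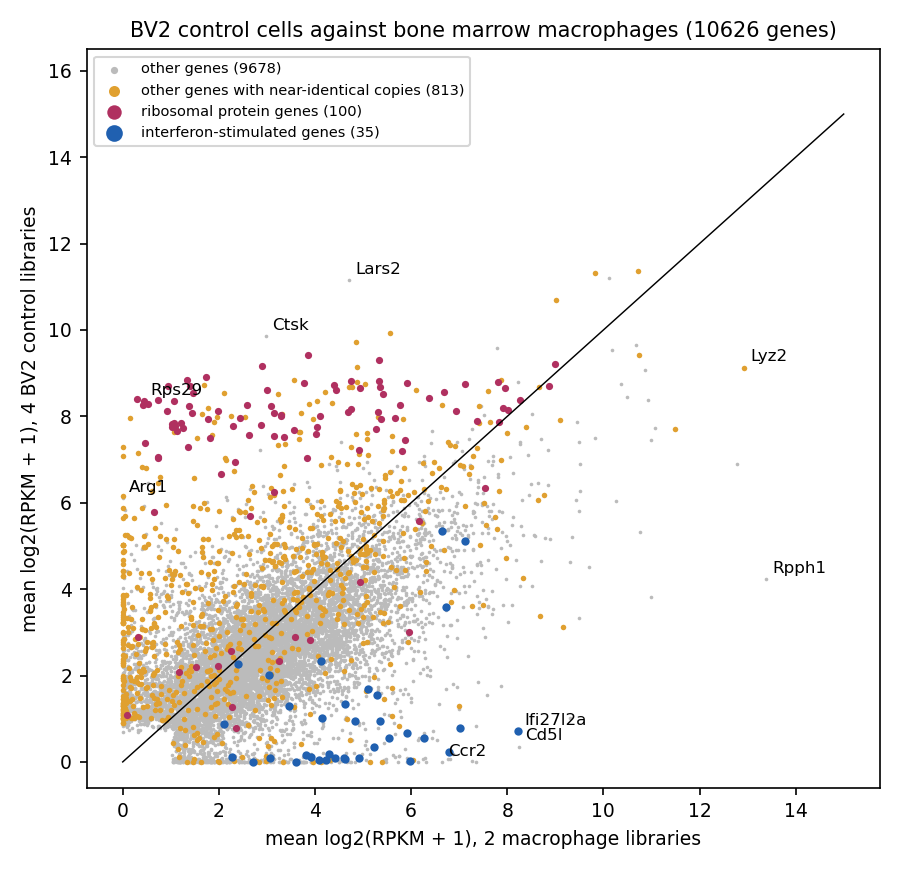
Mean log2(RPKM + 1) of the 4 BV2 control libraries (vertical axis) against that of the 2 macrophage libraries (horizontal axis), 1 point per gene for the 10626 genes tested, with the diagonal marking equal levels. The 35 interferon-stimulated genes (blue) lie on or below the diagonal, and most of the 100 ribosomal protein genes (red) and many other genes with near-identical copies (orange) lie above it.

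The lineage regulators came first. Spi1, which encodes PU.1, read 26.9, 28.7, 25.8 and 30.3 RPKM in the BV2 libraries and 23.4 and 45.0 in the macrophage libraries. The ranges overlapped and the difference of -0.21 ± 0.25 was not past the threshold (adjusted p = 0.473), although without the wild-type macrophage library it was -0.67 and called. Cebpb, the C/EBP factor of activated macrophages, read 51.6, 37.1, 52.4 and 32.9 RPKM in BV2 cells and 31.1 and 43.7 in macrophages. These overlapped again (0.21 ± 0.25, adjusted p = 0.486), and the gene was called higher when scaled to reads on gene transcripts, at 0.76. Cebpa, needed for the granulocyte and macrophage fate, read 5.63, 5.88, 5.74 and 5.22 RPKM in BV2 cells and 10.1 and 13.3 in macrophages. All 4 BV2 values were below both macrophage values, with a difference of -0.93 ± 0.15 (adjusted p = 0.00131). The lysosomal glycoprotein gene Cd68 had 236, 128, 194 and 165 RPKM in BV2 cells and 115 and 184 in macrophages, and these ranges overlapped too. It was called higher when scaled to reads on gene transcripts (0.84).

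Of the 42 myeloid transcription factors tested, 28 were lower in BV2 cells and 6 higher (23 and 6 under all 4 scalings), with a median of -0.95 against -0.29 over all genes. The level filter was passed through macrophages alone by 5 of those lower, and through BV2 cells alone by 2 of those higher. Runx3, a Runt factor of dendritic and Langerhans cells, stood out among those higher, at 7.71, 7.21, 6.90 and 6.81 RPKM in the BV2 libraries and 0.128 and 0.172 in the macrophage libraries (2.83 ± 0.13, adjusted p = 2.74e-06). Maf, a factor that restrains self-renewal in macrophages, was lower, at 3.24, 1.80, 3.78 and 2.91 RPKM in BV2 cells and 26.2 and 31.2 in macrophages (-2.94 ± 0.23), with no overlap between the cell types for either gene. Klf6 and Id2, regulators of inflammatory and myeloid gene programs, differed by -3.34 ± 0.20 and -3.11 ± 0.15.

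The defining surface markers of macrophages were present in BV2 cells at reduced levels. Csf1r, the M-CSF receptor gene, for which RefSeq also names a pseudogene, read 29.3, 22.3, 26.4 and 23.9 RPKM in the BV2 libraries and 251 and 247 in the macrophage libraries (-3.25 ± 0.15, adjusted p = 3.23e-06). Emr1, which encodes F4/80, read 65.1, 27.5, 65.3 and 32.3 RPKM in BV2 cells and 271 and 273 in macrophages. Ptprc, which encodes CD45, read 14.6, 13.2, 16.3 and 14.7 RPKM in BV2 cells and 70.7 and 83.8 in macrophages. For all 3 genes every BV2 value lay below both macrophage values. Itgam, the CD11b chain, differed by -2.42 ± 0.20, Fcgr1, a high-affinity receptor for IgG, by -2.59 ± 0.37 and Aif1, which encodes the cytoskeletal protein Iba1, by -2.94 ± 0.23. In bulk libraries such as these, fewer cells of a type and less RNA per cell cannot be told apart. Over the list of macrophage surface receptors and core genes, 21 of 34 members tested were lower and 4 higher (17 and 4 under all 4 scalings), with a median of -1.57. Of those lower 6 passed the level filter through macrophages alone, and of those higher 1 through BV2 cells alone. The scavenger receptor gene Msr1 read 0.124, 0.932, 0.104 and 0.651 RPKM in BV2 cells and 79.1 and 108 in macrophages. The folate receptor gene Folr2 was listed at 0 in every BV2 library against 65.6 and 74.0. Those higher included Itgax, the CD11c chain, at 44.4, 18.4, 49.3 and 20.7 RPKM in BV2 cells and 6.76 and 3.50 in macrophages (2.41 ± 0.45), whose call was lost without the mutant macrophage library (2.01). The lectin receptor gene Mgl2 was another, at 28.4, 9.88, 25.0 and 8.16 RPKM in BV2 cells and 0.387 and 0.748 in macrophages (3.42 ± 0.50). Gpnmb, a glycoprotein of lipid-laden macrophages and among the highest genes in both cell types, read 998, 514, 1060.5 and 575 RPKM in BV2 cells and 1052 and 1283 in macrophages and was not past the threshold (-0.63 ± 0.33). It was called lower with BV2 libraries of the second time only (-1.09) and with construct, time and genotype terms (-0.63).

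**Figure D2:**
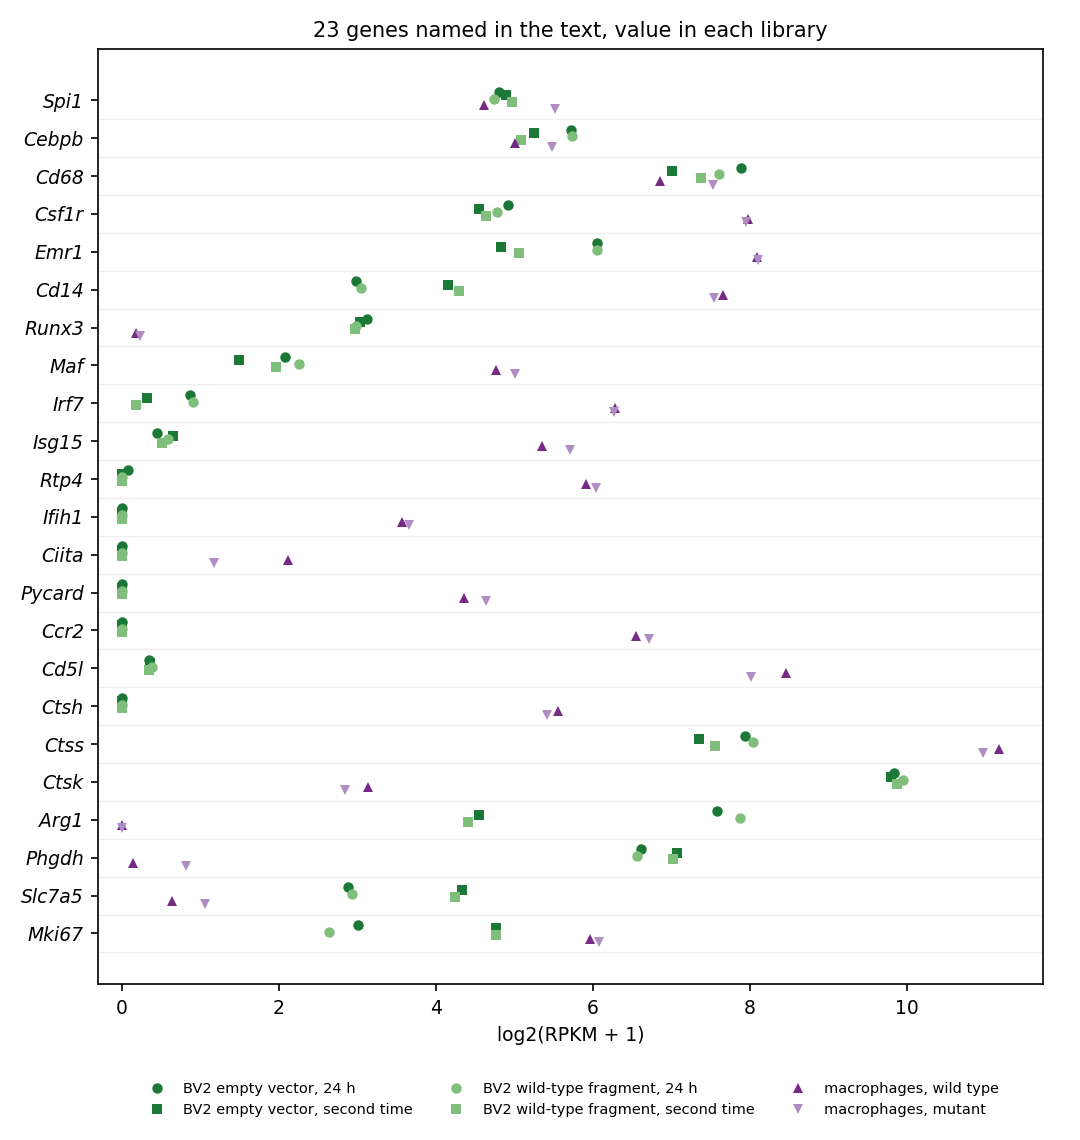
Level of 23 genes named in the text, as log2(RPKM + 1), in each of the 4 BV2 libraries (green) and the 2 macrophage libraries (purple), circles marking 24 h and squares the second time. Spi1, Cebpb and Cd68 overlap between the cell types, and Isg15, Rtp4, Ifih1, Pycard, Ccr2, Cd5l and Ctsh lie near 0 in BV2 cells. Runx3, Arg1, Slc7a5 and Phgdh, after which RefSeq names a pseudogene, lie near or toward 0 in macrophages. Ctsk lies above 0 in macrophages and far below its BV2 level.

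Interferon-stimulated genes formed the list that was lower most uniformly. Of 35 members, all of them tested, 34 were lower in BV2 cells and 0 higher, and 32 of the 34 calls held under all 4 scalings. The median difference was -3.82 against -0.29 over all genes, and 20 members, under 1 RPKM in all 4 BV2 libraries, passed the level filter through macrophages alone. Of the 15 others 14 were lower. Summed over the list, the level ran from 88.3 to 139.9 RPKM in BV2 cells and from 1562 to 1636 in macrophages. The remaining member, Oas1g, has near-identical relatives and read 4.08, 3.56, 3.83 and 3.86 RPKM in the BV2 libraries and 3.50 and 5.12 in the macrophage libraries. Without genes of that kind 26 of 26 members were lower.

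The promoters of 4 members are printed because genes that interferon switches on are known to carry an interferon-stimulated response element (ISRE) before the start, and these 4 show its forms at different distances. Each line gives the 200 bases before the transcript start from RefSeq, assembly GRCm38.p6, 5′ to 3′ on the gene's own strand, with matches to the ISRE core in capitals. The core was searched as GAAA, any 2 bases and GAAA again, or on the other strand TTTC, any 2 bases and TTTC, and overlapping matches run together.
Isg15 (chr4:156200819-156201018, minus strand): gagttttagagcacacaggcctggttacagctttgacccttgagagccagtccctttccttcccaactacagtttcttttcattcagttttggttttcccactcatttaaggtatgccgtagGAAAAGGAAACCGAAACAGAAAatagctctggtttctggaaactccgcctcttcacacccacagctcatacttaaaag
Ifit3 (chr19:34583329-34583528, plus strand): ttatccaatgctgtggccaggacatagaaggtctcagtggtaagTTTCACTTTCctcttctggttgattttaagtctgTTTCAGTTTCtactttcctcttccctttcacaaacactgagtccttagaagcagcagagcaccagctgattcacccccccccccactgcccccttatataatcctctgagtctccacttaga
Rsad2 (chr12:26456453-26456652, minus strand): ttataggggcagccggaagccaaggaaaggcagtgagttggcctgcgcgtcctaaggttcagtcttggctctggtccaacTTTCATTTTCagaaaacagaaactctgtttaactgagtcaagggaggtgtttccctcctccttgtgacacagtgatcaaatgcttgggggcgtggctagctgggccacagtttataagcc
Gbp3 (chr3:142559844-142560043, plus strand): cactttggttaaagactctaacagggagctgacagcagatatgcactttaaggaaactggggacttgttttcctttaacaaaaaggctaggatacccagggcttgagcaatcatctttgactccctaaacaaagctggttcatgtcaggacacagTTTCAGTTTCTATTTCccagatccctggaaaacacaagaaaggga
The core began 78, 72 and 66 bases before the start in Isg15, 156 and 122 in Ifit3, 120 in Rsad2, and 45 and 39 in Gbp3. In windows from 250 bases before to 50 after the start, searched on both strands, it was found in 16 of the 24 listed genes with a promoter in the RefSeq table, or 66.7%. The share was 3.93% of the 8515 tested genes with a promoter there and 3.44% of all 32851 promoters. Among genes lower under all 4 scalings 135 of 2344 held it (5.76%), and among those higher 54 of 1976 (2.73%). These letters describe the promoter and say nothing of a factor bound there.

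Isg15, a ubiquitin-like antiviral modifier, read 0.359, 0.569, 0.505 and 0.420 RPKM in the BV2 libraries and 40.0 and 51.2 in the macrophage libraries (-4.98 ± 0.15, adjusted p = 6.79e-07). Ifit3, whose product binds viral RNA complexes and whose family members are near-identical, read 0.135, 0, 0.0760 and 0.0400 RPKM in BV2 cells and 35.3 and 23.8 in macrophages. Rsad2, which encodes the antiviral enzyme viperin, read 0.286, 0.0760, 0.563 and 0.209 RPKM in BV2 cells and 37.2 and 35.6 in macrophages. For Gbp3, a guanylate-binding protein gene, the levels were 0, 0.0270, 0.0870 and 0.180 RPKM in BV2 cells and 9.15 and 5.85 in macrophages. In all 4 genes the BV2 libraries lay under 1 RPKM at both times and with both constructs, and neither macrophage library overlapped them. Irf7, the factor that amplifies interferon induction, read 0.820, 0.244, 0.865 and 0.135 RPKM in BV2 cells and 76.8 and 76.1 in macrophages (-5.71 ± 0.24). The RNA sensor gene Ifih1, which encodes MDA5, was listed at 0 in every BV2 library against 10.8 and 11.6 RPKM in macrophages (adjusted p = 9.31e-07). Rtp4 was listed at 0 in 3 of the 4 BV2 libraries and at 0.057 RPKM in the other, against 59.4 and 65.0. The largest difference of the list was that of Ifi27l2a, at 0.196, 0.467, 1.16 and 0.862 RPKM in BV2 cells and 276 and 321 in macrophages (-7.52 ± 0.25). Trim30a, Parp14 and Oasl2 had differences of -6.56 ± 0.13, -6.23 ± 0.25 and -5.23 ± 0.13.

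Of 29 tested Toll-like receptor and signalling genes, 24 were lower and 1 higher (22 and 1 under all 4 scalings), with a median of -1.77, and 4 of the lower members were under 1 RPKM in all 4 BV2 libraries. Tlr8, an endosomal sensor of RNA, read 1.20, 0.520, 1.13 and 0.751 RPKM in the BV2 libraries and 48.8 and 49.5 in the macrophage libraries. Tlr13, which senses bacterial ribosomal RNA, read 14.5, 9.19, 15.7 and 11.8 RPKM in BV2 cells and 196 and 177 in macrophages. Cd14, the co-receptor that hands lipopolysaccharide to Tlr4, read 6.87, 16.7, 7.27 and 18.7 RPKM in BV2 cells and 201 and 185 in macrophages (-3.98 ± 0.41), its BV2 values higher at the second time than at 24 h and still far below both macrophage values. Pycard, the adaptor that assembles inflammasomes (ASC), was listed at 0 in all 4 BV2 libraries against 19.4 and 23.8 (adjusted p = 6.63e-07). Ly86, which encodes the MD-1 partner of the receptor CD180, differed by -4.30 ± 0.21.

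Chemokines and chemokine receptors were lower for 20 of 23 members tested and higher for 0, with 19 of the calls holding under all 4 scalings and a median of -1.77. Another 10 listed members were under the level filter, and 12 of the 20 lower members passed it through the macrophage libraries alone. Of the 9 members at 1 RPKM or more in some library of each cell type, 8 were lower. Ccr2, the receptor that brings monocytes into tissue, was listed at 0 in the 4 BV2 libraries against 92.8 and 104 RPKM. Of the ligands, Ccl6 read 0.629, 0.848, 0.850 and 0.773 RPKM in the BV2 libraries and 188 and 138 in the macrophage libraries. Ccl9 read 8.42, 28.5, 7.94 and 30.4 RPKM in BV2 cells and 383 and 350.1 in macrophages. Within BV2 cells Ccl9 differed between the times, lower at 24 h with both constructs than at the second time.

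Cytokines and inflammatory mediators went both ways, with 10 of 29 higher and 13 lower, the same numbers under all 4 scalings. Among all genes tested 24.2% were higher and 41.4% lower. Of those higher 5 passed the level filter through BV2 cells alone, and of those lower 6 through macrophages alone. Lower were Tnf, at 1.85, 3.30, 3.04 and 3.11 RPKM in the BV2 libraries and 39.4 and 38.2 in the macrophage libraries (-3.40 ± 0.19), and Il10, listed at 0 in BV2 cells against 4.00 and 3.04. Alox5ap, the protein that presents arachidonic acid to 5-lipoxygenase, was also lower at 43.5, 32.9, 43.3 and 36.4 RPKM in BV2 cells and 2155 and 1390.2 in macrophages (-5.44 ± 0.22). Csf1, which encodes M-CSF itself, was higher, at 16.1, 8.38, 19.4 and 8.47 RPKM in BV2 cells and 0.968 and 0.759 in macrophages (2.84 ± 0.35, adjusted p = 3.06e-04). Ptgs1, the constitutive cyclooxygenase, was higher too, at 19.2, 10.8, 18.9 and 11.2 RPKM in BV2 cells and 0.823 and 1.24 in macrophages (2.94 ± 0.28). Neither gene's values overlapped between the cell types. The macrophage medium supplies M-CSF and the BV2 medium is not labelled as doing so, and medium and cell type cannot be told apart here. Spp1, the secreted phosphoprotein osteopontin, was abundant in both and higher in BV2 cells, at 2377, 2158, 2670.5 and 2318 RPKM in BV2 cells and 1141 and 1085 in macrophages (1.09 ± 0.14). Mif, also higher (4.73 ± 0.26), has near-identical copies and is uncertain.

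Phagocytic and complement genes were lower too. Of 31 tested Fc receptor and complement genes, 25 were lower and 3 higher (23 and 2 under all 4 scalings), with a median of -2.49, and 8 of the lower members passed the level filter through macrophages alone. Another 8 of the 39 listed were under the filter. Axl, a receptor for dying cells, was listed at 0 in all BV2 libraries against 17.1 and 21.6 RPKM. Pros1, which encodes protein S, a bridging ligand of other receptors of that family, was likewise at 0 against 26.7 and 25.0. C5ar1, the receptor of the anaphylatoxin C5a, read 1.38, 2.16, 0.981 and 2.93 RPKM in the BV2 libraries and 53.5 and 74.4 in the macrophage libraries. The 3 chains of the complement initiator C1q were all lower, with differences of -3.82 ± 0.37 for C1qa, -3.12 ± 0.23 for C1qb and -4.08 ± 0.26 for C1qc. Mertk, another receptor for dying cells, read 4.38, 2.04, 4.55 and 2.57 RPKM in BV2 cells and 7.44 and 6.31 in macrophages (-0.89 ± 0.27). Its call was lost under median centring (-0.59), quantile normalization (-0.58), when scaled to reads on gene transcripts (-0.42), without the filter on low values, and without either macrophage library (-0.79 and -0.99).

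Integrins and adhesion genes were lower for 18 of 22 members tested and higher for 1, Itgax, with a median of -1.55. Of those lower 3 passed the level filter through macrophages alone, and 10 of the 32 listed were under it. Itgb2, the beta chain shared by the leukocyte integrins, read 26.1, 15.3, 22.7 and 16.6 RPKM in the BV2 libraries and 173 and 174 in the macrophage libraries (-3.07 ± 0.23), so the chain that pairs with CD11c was lower while CD11c itself was higher. Matrix and protease genes were lower for 12 of 15 members tested, of 35 listed, and higher for 1. Of those lower 4 passed the level filter through macrophages alone. Of the 11 members at 1 RPKM or more in some library of each cell type, 8 were lower and 1 higher. The macrophage elastase gene Mmp12 read 6.00, 1.45, 7.86 and 1.36 RPKM in BV2 cells and 98.3 and 70.5 in macrophages (-4.28 ± 0.58). Mmp14, a membrane-bound collagenase, was the member that was higher, at 22.7, 14.2, 21.5 and 14.1 RPKM in BV2 cells and 2.61 and 0.559 in macrophages (2.98 ± 0.36).

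Lysosomal genes were lower for 21 of 39 members and higher for 7 (15 and 7 under all 4 scalings). The shares over all genes were 41.4% and 24.2% (27.6% and 24.0%), and single cathepsins differed far more than the list did. Ctsk, the collagen-degrading cathepsin of osteoclasts, read 913, 886, 991 and 940.0 RPKM in the BV2 libraries and 7.80 and 6.16 in the macrophage libraries, which is a difference of 6.88 ± 0.14 (adjusted p = 2.46e-07) and the largest among higher genes without near-identical copies. Ctsh, an aminopeptidase cathepsin, was listed at 0 in every BV2 library against 46.0 and 41.7. Ctss, which processes antigen, read 245, 163, 261 and 187 RPKM in BV2 cells and 2312 and 2006 in macrophages (-3.35 ± 0.22). The osteoclast markers gave no common direction, since 3 of 7 were higher and 3 lower. Acp5, the tartrate-resistant phosphatase, read 19.7, 6.78, 19.6 and 10.3 RPKM in BV2 cells and 2.01 and 1.99 in macrophages, and Ocstamp 2.03, 1.24, 2.14 and 1.82 RPKM in BV2 cells and 0.119 and 0.268 in macrophages. Dcstamp, needed for cell fusion, went the other way with 0.272, 0.287, 0.115 and 0.318 RPKM in BV2 cells and 2.45 and 2.06 in macrophages, as did the RANK receptor gene Tnfrsf11a with 2.33, 3.18, 2.05 and 3.37 RPKM in BV2 cells and 6.42 and 10.991 in macrophages. Summed over that list the level ran from 915 to 1065 RPKM in BV2 cells, most of it Ctsk, and was 44.6 and 46.4 in macrophages. Lyz2 and Lyz1, lysozyme genes of nearly the same sequence, stood in opposite order, Lyz2 lower (-3.80 ± 0.16) and Lyz1 higher (3.81 ± 0.16), and their split is uncertain.

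Lipid handling split by gene. Lpl, which frees fatty acids from lipoproteins, read 74.3, 73.2, 86.3 and 73.7 RPKM in the BV2 libraries and 718 and 740.0 in the macrophage libraries (-3.23 ± 0.14). Cd36, the fatty acid translocase, read 44.8, 25.4, 54.3 and 31.6 RPKM in BV2 cells and 322 and 435 in macrophages (-3.29 ± 0.31). Pparg, the nuclear receptor known to raise both, read 2.97, 0.734, 2.71 and 0.470 RPKM in BV2 cells and 18.5 and 21.2 in macrophages (-3.07 ± 0.43), its BV2 values lower at the second time. Pltp, a phospholipid transfer protein gene, read 0.101, 0.0400, 0.297 and 0.132 RPKM in BV2 cells and 117 and 115 in macrophages (-6.69 ± 0.14). Apoe, the main lipid carrier protein of brain phagocytes, was higher at 1097, 536, 1104 and 524 RPKM in BV2 cells and 322 and 149 in macrophages (1.80 ± 0.44, adjusted p = 0.00883). Its levels at 24 h were above those at the second time with both constructs, and the call was lost without the mutant macrophage library (1.24) and without the filter on low values. Rxra, the partner of PPAR and liver X receptors, was higher at 17.7, 13.9, 16.7 and 13.8 RPKM in BV2 cells and 2.71 and 3.35 in macrophages (2.03 ± 0.16). Over the 22 tested nuclear receptor and target genes 9 were higher and 9 lower, and the list's median changed sign with the scaling (-0.17 under RPKM, 0.13 under median centring). Of 27 cholesterol synthesis genes 10 were higher and 9 lower, against 24.2% and 41.4% of all genes tested. Fdps, which makes farnesyl diphosphate, was higher by 3.88 ± 0.33.

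Of 14 tested genes of MHC class II and costimulation, 10 were lower and 1 higher, with a median of -1.52, and without near-identical relatives 5 of 7 were lower and 0 higher. Of those lower 6 passed the level filter through macrophages alone, and the 1 higher passed it through BV2 cells alone. Of the 6 members at 1 RPKM or more in some library of each cell type, 4 were lower. Ciita, the master regulator of MHC class II, was listed at 0 in every BV2 library against 3.35 and 1.26 RPKM in macrophages (adjusted p = 8.32e-04). The class II chains H2-Aa, H2-Ab1 and H2-Eb1 were listed at 0 in BV2 cells as well. In macrophages H2-Aa read 45.0 and 26.5, H2-Ab1 56.2 and 30.0 and H2-Eb1 24.8 and 10.8 RPKM, values that are uncertain where alleles and relatives share sequence. Cd74, the invariant chain, had 81.4, 25.9, 72.7 and 26.1 RPKM in the BV2 libraries and 172 and 81.6 in the macrophage libraries. The highest BV2 value lay just under the lower macrophage value, and the difference of -1.38 ± 0.57 was not past the threshold (adjusted p = 0.0642). It was called lower with BV2 libraries of the second time only (-2.15), with the wild-type-fragment libraries only (-1.42), with all 10 RNA libraries in the fit or with construct, time and genotype terms (-1.38 in each), and without either 24 h library (-1.66 and -1.61). Class I presentation genes were lower for 14 of 18 and higher for 2, H2-Q6 and H2-Q7, which are near-identical. Psmb9, a catalytic subunit of the immunoproteasome, read 4.73, 2.59, 3.14 and 2.37 RPKM in BV2 cells and 32.7 and 40.5 in macrophages (-3.18 ± 0.24).

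The label of the line was set beside genes that define microglia. Sall1, the microglial zinc finger factor, was listed at 0 in all 6 libraries, and Siglech at 0 in 5 of them and at 0.079 in the mutant macrophages. The 2 primary microglia libraries of the series held 33.3 and 36.4 RPKM of Sall1 and 165 and 151 of Siglech. P2ry12, the purine receptor of resting microglia, read 0.0390, 0.0610, 0 and 0.0340 RPKM in the BV2 libraries and 1.40 and 1.72 in the macrophage libraries. The fractalkine receptor gene Cx3cr1 read 0, 0.0190, 0.0200 and 0.0420 RPKM in BV2 cells and 3.04 and 4.53 in macrophages. Both were under 0.1 RPKM in every BV2 library. Tmem119 read 1.26, 1.86, 1.28 and 1.26 RPKM in BV2 cells and 0.701 and 0.232 in macrophages (0.73 ± 0.19, adjusted p = 0.0106), a call that was lost with the wild-type-fragment libraries only (0.65) and without the mutant macrophage library (0.50). Sall1, Siglech, P2ry12 and Cx3cr1 were thus at or near 0 in these BV2 cells. Over the 19 microglia identity genes tested, of 27 listed, 16 were lower than in macrophages and 2 higher (14 and 2 under all 4 scalings), with a median of -2.16. Of those lower 6 passed the level filter through macrophages alone, and of those higher 1 through BV2 cells alone. Of the 12 members at 1 RPKM or more in some library of each cell type, 10 were lower and 1 higher. Trem2, the lipid receptor of plaque-associated microglia, read 47.8, 31.5, 48.8 and 30.2 RPKM in BV2 cells and 162 and 190.3 in macrophages (-2.16 ± 0.24).

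Markers of other cells that a bone marrow culture can hold moved with the comparison. Of 13 granulocyte markers tested, 12 were lower in BV2 cells, 11 of them under all 4 scalings, but 9 of the 12 passed the level filter through the macrophage libraries alone. Summed over the list the level ran from 5.66 to 18.7 RPKM in BV2 cells and was 297 and 515 in the macrophage libraries. S100a9, which encodes a calprotectin chain of neutrophils, was listed at 0 in all BV2 libraries against 243 and 108, and the granule gene Ngp likewise against 31.5 and 19.1. In all, 6 of the markers in the table were at 0 in every BV2 library. No marker was at 0 in both macrophage libraries, which were read to greater depth. Monocyte markers were lower for 7 of 9 (5 of them passing through macrophages alone) and higher for 2, with sums of 19.8 to 44.4 RPKM in BV2 cells against 167 and 191. Mast cell and fibroblast markers were under the level filter throughout, with sums of at most 0.832 RPKM in BV2 cells and 1.45 in macrophages. Of the remaining marker lists few members were above the filter: 1 of 10 for dendritic cells, 1 of 14 for lymphocytes, 1 of 11 for the erythroid and megakaryocyte lineages, 1 of 8 for astrocytes, 2 of 14 for neurons and oligodendrocytes and 3 of 8 for endothelium. Of these 9 members 2 were higher in BV2 cells and 5 lower. The part that granulocyte and monocyte RNA has in the genes lower in BV2 cells, chemokine receptors and integrins included, was not tested.

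Ribosome assembly genes were higher in BV2 cells, and no member was lower under all 4 scalings. Of 33 members tested, 22 were higher, each of those under all 4 scalings, and 1 lower, with a median of 1.17. Without members that have near-identical copies the count was 19 of 30. Nop56, a core protein of box C/D small nucleolar particles, read 49.0, 81.7, 54.7 and 76.5 RPKM in the BV2 libraries and 6.34 and 9.89 in the macrophage libraries (2.86 ± 0.27, adjusted p = 7.89e-05). Polr1b, the second largest subunit of RNA polymerase I, read 9.64, 16.6, 8.66 and 17.0 RPKM in BV2 cells and 1.15 and 2.19 in macrophages (2.36 ± 0.32). Nop10, a protein of the pseudouridylation particles, read 47.2, 83.1, 41.4 and 103 RPKM in BV2 cells and 7.70 and 13.003 in macrophages. All 3 genes were higher at the second time than at 24 h within BV2 cells, and higher than both macrophage libraries at either time.

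Serine, one-carbon and amino acid supply genes followed, with 11 of 24 higher and 1 lower and a median of 0.72. Of those higher 5 passed the level filter through BV2 cells alone. Of the 19 members at 1 RPKM or more in some library of each cell type, 6 were higher and 1 lower. Over all genes at that level it was 1719 and 3689 of 8941. Psat1, the aminotransferase of serine synthesis, read 58.8, 108, 59.9 and 114 RPKM in the BV2 libraries and 10.9 and 17.0 in the macrophage libraries (2.49 ± 0.34). Slc7a5, a transporter of large neutral amino acids, read 6.34, 19.1, 6.66 and 17.9 RPKM in BV2 cells and 0.557 and 1.09 in macrophages. Slc1a5, which carries glutamine, read 24.3, 29.6, 23.5 and 28.0 RPKM in BV2 cells and 3.25 and 5.78 in macrophages. All 3 were higher in all 4 BV2 libraries than in either macrophage library. Phgdh, which opens serine synthesis, read 96.6, 133, 93.1 and 129 RPKM in BV2 cells and 0.107 and 0.766 in macrophages (6.33 ± 0.25), but RefSeq names a pseudogene after it. Ddit4, a stress-induced brake on mTOR, was higher at 13.6, 14.0, 13.8 and 11.5 RPKM in BV2 cells and 0.807 and 0.586 in macrophages (3.07 ± 0.15). The stress factor Atf3 was the member that was lower, at 30.9, 13.8, 36.3 and 13.6 RPKM in BV2 cells and 126 and 105 in macrophages (-2.36 ± 0.42).

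Arginine and polyamine metabolism was higher for 12 of 17 members and lower for 4 (12 and 3 under all 4 scalings, 7 and 4 of 12 without near-identical copies), with a median of 1.94. Of those higher 4 passed the level filter through BV2 cells alone. Of the 13 members at 1 RPKM or more in some library of each cell type, 8 were higher and 4 lower. Arg1, the arginase that turns arginine into ornithine and a classical marker of alternative activation, read 189.7, 22.5, 234 and 20.3 RPKM in BV2 cells and was listed at 0 in both macrophage libraries (adjusted p = 0.00171). With both constructs the 24 h library lay far above that of the second time. Ass1, which rebuilds arginine from citrulline, read 13.5, 9.60, 11.5 and 12.3 RPKM in the BV2 libraries and 1.31 and 0.856 in the macrophage libraries (2.61 ± 0.18). Srm, which makes spermidine, read 23.5, 45.0, 18.8 and 44.9 RPKM in BV2 cells and 2.26 and 3.05 in macrophages (3.13 ± 0.38). Slc7a1, the main arginine transporter, read 10.958, 15.6, 12.3 and 16.4 RPKM in BV2 cells and 2.50 and 3.01 in macrophages (1.96 ± 0.19), and for all 4 genes the cell types did not overlap.

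Glycolysis and hypoxia genes were higher for 16 of 35 members and lower for 9 (16 and 6 under all 4 scalings). The shares over all genes were 24.2% and 41.4% (24.0% and 27.6%). Pgk1, Pgam1, Eno1 and Gapdh, enzymes of the lower path, differed by 6.40 ± 0.28, 6.04 ± 0.27, 3.90 ± 0.15 and 4.08 ± 0.35. In macrophages Gapdh read 0.460 and 2.02 and Pgk1 1.26 and 3.36 RPKM, and all 4 genes belong to a class of genes with near-identical copies. Without genes of that kind 7 of 24 members were higher and 8 lower. Epas1, which encodes HIF-2 alpha and is outside that class, was higher (3.79 ± 0.40). It read 22.2, 8.80, 22.8 and 10.0 RPKM in the BV2 libraries and 0.0990 and 0.157 in the macrophage libraries. The lactate exporter gene Slc16a3 was listed at 0 in BV2 cells against 11.8 and 13.012.

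Of genes whose sequence is shared with near-identical copies more were higher in BV2 cells than lower, histone genes excepted, and their values bear on every list above in which they occur. The class was drawn from gene symbols and RefSeq names and holds ribosomal protein, histone and pseudogene or predicted gene symbols, parents of named pseudogenes, transcripts placed at several sites, and families known to be near-identical. It does not hold every such gene, and genes called without near-identical copies in any section are those outside it. Of 100 ribosomal protein genes tested 83 were higher and 7 lower, with a median of 4.01, and the median level was 251 RPKM in BV2 cells, 8.00 in macrophages and 5.35 in primary microglia. Rps29, a structural protein of the small subunit, read 345, 305, 359 and 306 RPKM in the BV2 libraries and 0.344 and 0.381 in the macrophage libraries. Rps23, another, read 399, 431, 430.3 and 406 RPKM in BV2 cells and 0.843 and 1.03 in macrophages. Some overlapped between the cell types, as did Rps14, which read 247, 232, 250.2 and 199.9 RPKM in BV2 cells and 267 and 191 in macrophages. Of 74 histone genes 20 were higher and 27 lower (median -0.44). Over the 922 genes of the class 555 were higher and 166 lower (median 1.18), against 2019 and 4236 of the 9704 other genes (median -0.37). The 15 largest differences among higher genes all came from the class. The sources used here do not give how reads shared by several places were counted in any library, and its part in these differences was not tested. With the class left out of the fit, 2028 genes were higher and 4243 lower.

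**Figure D3:**
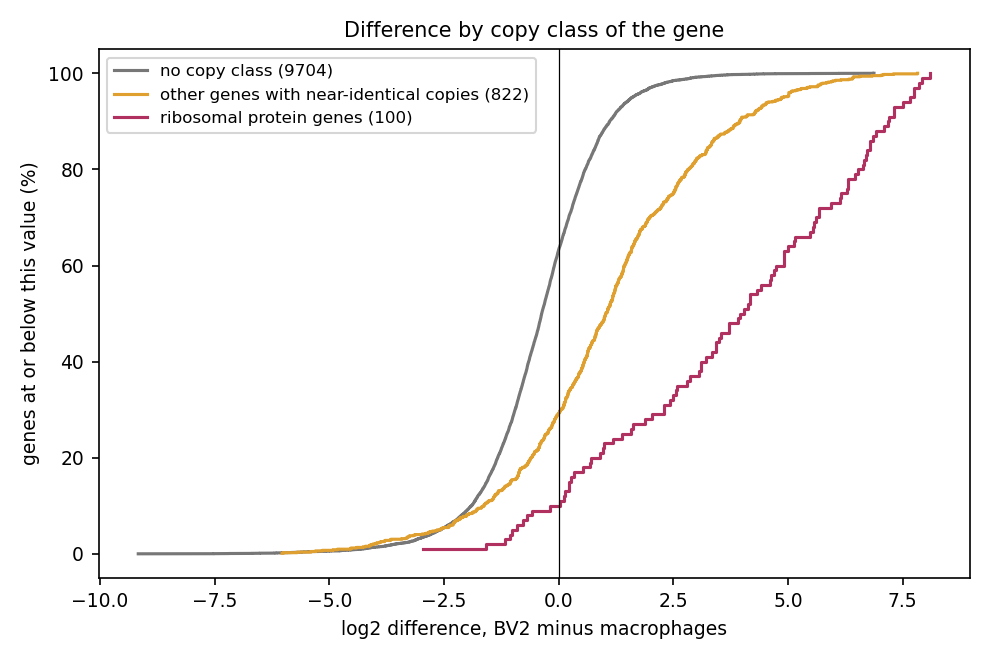
Cumulative share of genes (vertical axis, percent) at or below each log2 difference, BV2 minus macrophages (horizontal axis). Curves are for 9704 genes outside the copy class, 100 ribosomal protein genes and 822 other genes of the class. The curve of the ribosomal protein genes lies far to the right, with a median of 4.01. That of genes outside the class, some of which may still have copies, is centred a little below 0, at -0.37.

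Outside that class, the genes higher by the largest amounts after Ctsk were Lars2, Arg1, Erh, Tex101 and Mt2. Lars2, the mitochondrial leucyl-tRNA synthetase, read 2291, 2219, 2290.2 and 2266 RPKM in the BV2 libraries and 64.6 and 9.30 in the macrophage libraries, with a gap between the 2 macrophage libraries as well. The 2 primary microglia libraries held 1.16 and 2.67 RPKM of it, and what set its level in BV2 cells was not tested. Erh has processed pseudogenes that the class does not list. Tex101, a surface glycoprotein gene known from germ cells, read 54.7, 54.6, 57.9 and 58.4 RPKM in BV2 cells and 0.0630 and 0 in macrophages. Mt2, a metallothionein that binds zinc, read 59.4, 65.2, 48.5 and 66.6 RPKM in BV2 cells and 0.0600 and 0.760 in macrophages. Flt1, a receptor for vascular endothelial growth factor that the endothelial marker list holds, read 44.4, 18.9, 44.1 and 20.6 RPKM in BV2 cells and 0.344 and 0.285 in macrophages (4.54 ± 0.38). Kdr, its partner on endothelium, stood the other way at 0.0330, 0.0130, 0.0140 and 0.0290 RPKM in BV2 cells and 3.13 and 3.33 in macrophages. Clu, the extracellular chaperone clusterin, read 32.0, 21.3, 32.2 and 24.1 RPKM in BV2 cells and 0.258 and 0 in macrophages. The calcium channel gene Mcoln3 read 73.9, 51.2, 73.6 and 59.9 RPKM in BV2 cells and 2.24 and 2.50 in macrophages.

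The 2 genes lower by the largest amounts were small structured RNAs. Of 8 such RNAs tested, 8 were lower, with a median of -5.96. Rpph1, the RNA of RNase P, read 21.1, 16.1, 22.5 and 12.9 RPKM in the BV2 libraries and 8664 and 13305 in the macrophage libraries (-9.16 ± 0.27). Vaultrc5, a vault RNA, read 0.784, 1.25, 0.441 and 1.84 RPKM in BV2 cells and 575 and 691 in macrophages. These transcripts have no poly(A) tail, and the libraries were made from RNA enriched for such tails, so their level also follows how far they were carried over. That carry-over was not tested. Of messenger RNAs, Cd5l, a secreted scavenger protein of macrophages, read 0.266, 0.281, 0.299 and 0.272 RPKM in BV2 cells and 353 and 257 in macrophages (-7.88 ± 0.16). Clec12a, an inhibitory lectin receptor, read 0, 0.0640, 0 and 0 RPKM in BV2 cells and 166 and 142 in macrophages. Evl, which extends actin filaments, read 0, 0.0380, 0 and 0.170 RPKM in BV2 cells and 147 and 79.2 in macrophages. Npy, which encodes neuropeptide Y, was listed at 0 in BV2 cells against 76.9 and 80.2. For each of these genes the 4 BV2 values were far below both macrophage values.

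Of 38 cell cycle and mitosis genes 18 were lower and 3 higher (11 and 3 under all 4 scalings), and of 38 DNA replication genes 8 were lower and 1 higher (3 and 1), with 29 not past the threshold. Over all genes 41.4% were lower and 24.2% higher (27.6% and 24.0% under all 4 scalings). The numbers lower were thus near the share over all genes for the cell cycle list and below it for DNA replication. The BV2 values of Mki67, Mcm5 and Ube2c, named after their values were seen, were lower at 24 h than at the second time. Mki67, the proliferation antigen Ki-67, read 7.06, 26.2, 5.22 and 26.3 RPKM in the BV2 libraries and 61.4 and 66.3 in the macrophage libraries, low at 24 h, higher at the second time and highest in macrophages. That call (-2.22 ± 0.65) was lost when scaled to reads on gene transcripts (-1.68), without the filter on low values, and without either macrophage library (-2.28 and -2.17). Mcm5, a subunit of the replicative helicase, read 4.81, 26.4, 3.35 and 23.7 RPKM in BV2 cells and 18.5 and 24.5 in macrophages (-0.96 ± 0.79, adjusted p = 0.311). Its second-time values overlapped those of macrophages, and with BV2 libraries of 24 h only the difference was -2.15 and called. Ube2c, which drives exit from mitosis, read 7.70, 28.6, 7.08 and 29.0 RPKM in BV2 cells and 11.7 and 17.3 in macrophages, so that macrophages lay between the 2 times. The kinesin gene Kif11, which separates the spindle poles, was lower at both times, at 3.15, 11.2, 2.50 and 11.4 RPKM in BV2 cells and 59.2 and 51.8 in macrophages (-3.04 ± 0.56), a call that was lost without the wild-type macrophage library (-2.94). Cdk6 and Cdk4, partners of the D cyclins, stood in opposite order, Cdk6 lower (-2.55 ± 0.17) and Cdk4 higher (1.19 ± 0.20). Cdk4 read 63.6, 76.5, 55.8 and 81.6 RPKM in BV2 cells and 25.7 and 33.9 in macrophages.

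Of 28 tested p53 targets and growth arrest genes, 17 were lower and 6 higher (12 and 6 under all 4 scalings). The lists of this paragraph stand beside 41.4% lower and 24.2% higher over all genes (27.6% and 24.0% under all 4 scalings). Mdm2, the ligase that holds p53 down and is itself a p53 target, read 7.40, 8.13, 8.73 and 8.52 RPKM in the BV2 libraries and 94.9 and 63.5 in the macrophage libraries (-3.10 ± 0.19). Sesn1, another target, read 2.84, 2.58, 2.86 and 2.64 RPKM in BV2 cells and 30.0 and 38.6 in macrophages (-3.23 ± 0.15). Iron genes were higher for 8 of 18 and lower for 6. Tfrc, the transferrin receptor, read 66.0, 104, 79.1 and 110.5 RPKM in BV2 cells and 20.4 and 23.6 in macrophages (1.96 ± 0.23), so the receptor that brings iron in was higher. The gene of the iron exporter ferroportin, Slc40a1, was lower (-2.14 ± 0.19) and has a pseudogene in RefSeq. Over NADPH oxidase and antioxidant genes 6 of 29 were higher and 13 lower, near the 24.2% and 41.4% of all genes. Of the phagocyte oxidase, Cybb, its membrane catalytic chain, was lower at 22.1, 21.0, 29.7 and 24.6 RPKM in BV2 cells and 609 and 280.1 in macrophages (-4.04 ± 0.31), and the cytosolic subunits Ncf1 and Ncf4 had differences of -3.02 ± 0.15 and -2.23 ± 0.16. Cytoskeleton and motility genes were lower for 16 of 33 and higher for 7 (10 and 7 under all 4 scalings), again near the shares over all genes, and without near-identical copies for 12 and 1 of 19.

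Genes expressed in fetal tissue and tumours were above the filter for 10 of 31 listed members, of which 6 were higher and 2 lower. Of those higher 3 passed the filter through BV2 cells alone, and of those lower 1 through macrophages alone. Igf2bp3, an RNA-binding protein of embryos and tumours, read 6.56, 8.36, 7.24 and 8.73 RPKM in the BV2 libraries and 1.08 and 0.836 in the macrophage libraries (2.15 ± 0.16). Hoxa5, a positional homeobox gene, read 1.34, 1.14, 0.973 and 1.98 RPKM in BV2 cells and 0.141 and 0.145 in macrophages. Of 13 huntingtin and partner genes 2 were higher and 6 lower (2 and 4 under all 4 scalings), against 24.2% and 41.4% of all genes, and the list's median changed sign with the scaling (-0.39 under RPKM, 0.084 when scaled to reads on gene transcripts). Htt, the mouse huntingtin gene, read 3.97, 2.86, 3.62 and 2.94 RPKM in BV2 cells and 4.22 and 1.26 in macrophages and was not past the threshold (0.33 ± 0.32, adjusted p = 0.383). It was called higher without the wild-type macrophage library (0.94) and with construct, time and genotype terms (0.33). The human fragment is a separate transcript, and its level is not read from this gene. Of 6 X- and Y-linked sex genes tested 2 were higher and 2 lower, and 0 of the lower calls held under all 4 scalings. Xist, the RNA that silences an X chromosome in female cells, read 26.9, 15.4, 28.5 and 18.6 RPKM in BV2 cells and 42.7 and 30.3 in macrophages (adjusted p = 0.0584), and was called lower without either 24 h library (-0.80 and -0.83). The Y-linked Ddx3y, at most 0.575 RPKM in BV2 cells, was listed at 0 in both macrophage libraries.

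**Figure D4:**
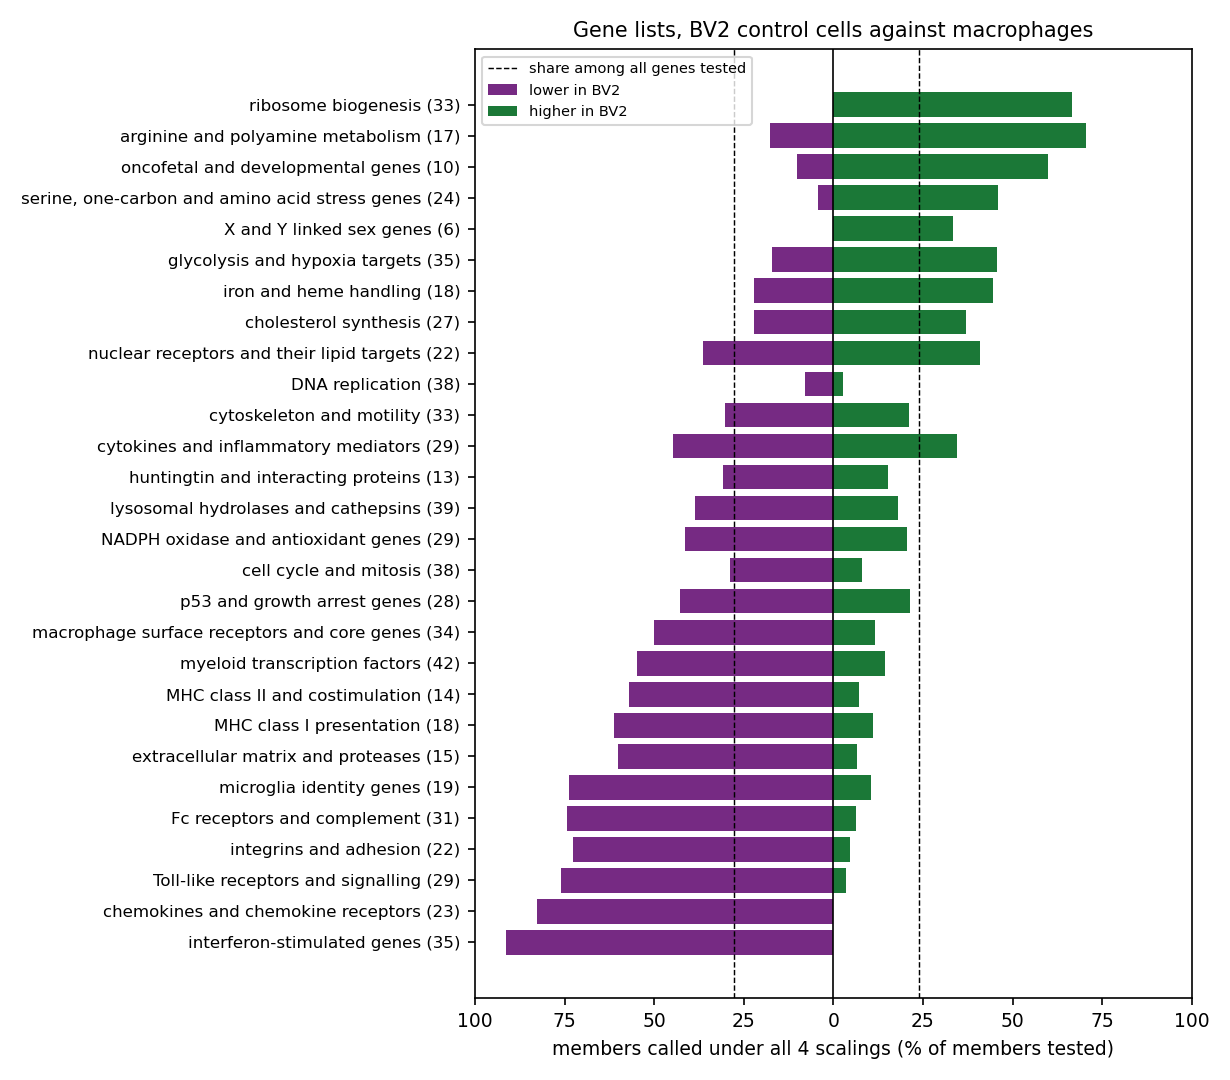
Members called under all 4 scalings, as a percentage of the members tested (number in brackets), for the 28 gene lists, higher in BV2 cells to the right and lower to the left. Dashed lines mark the share over all 10626 genes (24.0% higher and 27.6% lower). Interferon-stimulated genes and chemokines reach furthest to the left with no member to the right, and ribosome biogenesis lies to the right with no member to the left.

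Some genes were read in one cell type and hardly at all in the other. At 10 RPKM or more in every library of a type and under 0.5 in every library of the other, 92 genes (0.866%) were on in macrophages and 59 (0.555%) on in BV2 cells. Of the 92, 81 were outside the copy class. They included Ccr2, Axl, Pros1, Stab1, Ctsh, Pycard, Csf2ra and the protocadherin gene Pcdh7, listed at 0 in BV2 cells against 36.5 and 31.7. Of the 59, 45 belonged to the copy class, and 14 remained. Beside Arg1, Tex101, Clu and Flt1 these took in Nedd4, a ubiquitin ligase, at 19.8, 15.4, 20.9 and 16.9 RPKM in the BV2 libraries and 0.248 and 0.326 in the macrophage libraries. The filamin gene Flnc read 13.8, 10.976, 11.7 and 10.8 RPKM in BV2 cells and 0.112 and 0.0460 in macrophages. Ddah1, which clears methylarginines, read 18.7, 11.2, 19.8 and 13.2 RPKM in BV2 cells and 0 and 0.0220 in macrophages. The 14 also held Ube2v1, Timm8a1 and Cdk2ap1, each under 1 RPKM in both macrophage libraries and both primary microglia libraries. Since the copy class does not hold every gene with copies, some of the 14 may have them. Members of these sets were chosen by this same contrast, so their differences are a description.

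Chromatin in BV2 cells, measured in 1 library per antibody for each control construct, was set beside these levels. H3K4me2, a histone mark of active and poised promoters and enhancers, lay within 1 kb of the transcript start, in either control library, for 89.8% of the genes tested and 14.5% of the 12110 filtered out. Genes lower in BV2 cells under all 4 scalings fell apart by their level there. Those still at 1 RPKM or more in every BV2 library carried the mark in 1961 of 2036 cases (96.3%, 95% Wilson interval 95.4 to 97.1). Those under 0.5 RPKM in all 4 carried it in 124 of 437 (28.4%, 24.4 to 32.8). Within 10 kb the shares were 98.4% and 54.0%. Among the 92 genes on in macrophages and off in BV2 cells it was 22 (23.9%), and 15 interferon-stimulated genes under 0.5 RPKM carried it in 11 cases (73.3%). Of the interferon-stimulated genes named above, not all under 0.5 RPKM in every BV2 library, Isg15, Rsad2, Gbp3, Rtp4 and Irf7 had a marked start. Ifih1, Ifit3, Trim30a and Ifi27l2a did not. Of 9 chemokine and receptor genes lower and under 0.5 RPKM in all 4 BV2 libraries, 6 were marked, Ccr2 and Cx3cr1 among them. Of 8 Fc receptor and complement genes at that level 2 were marked.

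PU.1 peaks within 10 kb of the start were found for 81.1% of genes tested, for 277 of the 437 genes lower and under 0.5 RPKM (63.4%, 58.8 to 67.8), and for 41.0% of those filtered out. Within 1 kb the first 2 shares were 41.7% and 20.8%. For C/EBP beta the shares were 83.9%, 58.4% and 36.4%. All 9 of the silent chemokine and receptor genes and all 8 of the silent Fc receptor and complement genes had a PU.1 peak in that window in BV2 cells. For interferon-stimulated genes it was 9 of 15. Genes higher in BV2 cells without near-identical copies carried H3K4me2 at the start in 1795 of 1999 cases (89.8%), and the 14 on in BV2 and off in macrophages in all 14. A peak near a start is a position only, intervals cover counting error alone, and macrophage chromatin was not analysed here.

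**Figure D5:**
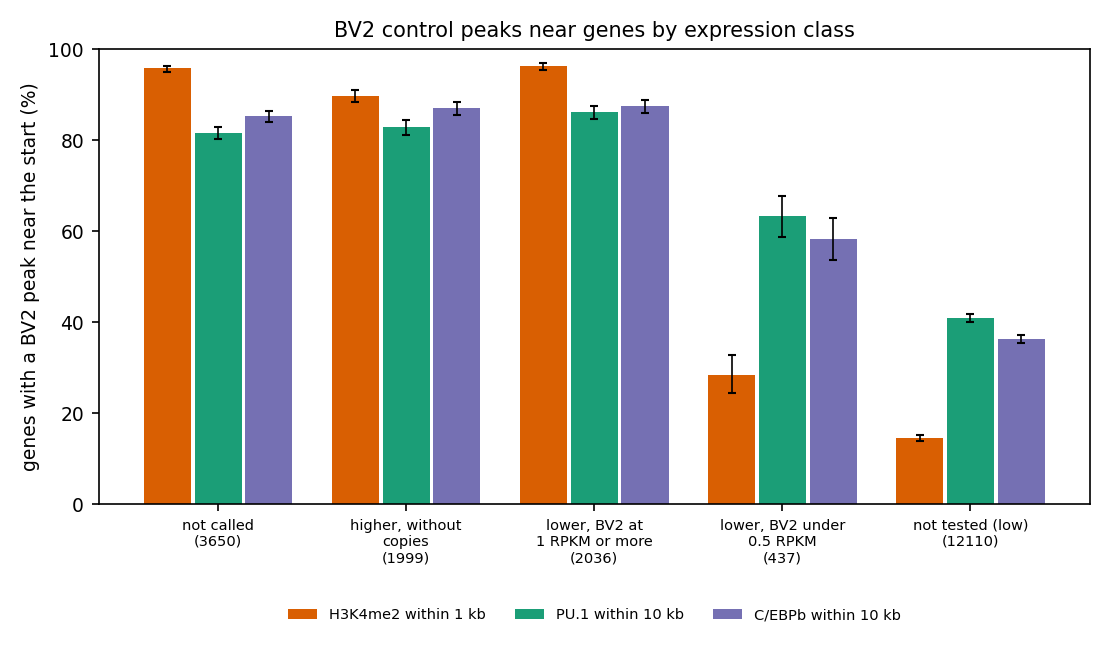
Share of genes (vertical axis, percent) with a BV2 control peak of H3K4me2 within 1 kb, PU.1 within 10 kb or C/EBP beta within 10 kb of the transcript start, for 5 classes of genes (number in brackets) by their call and level in BV2 cells, with 95% Wilson intervals as bars. The H3K4me2 share is 96.3% where a lower gene stays at 1 RPKM or more in BV2 cells and 28.4% where it is under 0.5, and the PU.1 shares, in a window 10 times as wide, are 86.1% and 63.4%.

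Median differences varied over chromosomes, and no test was made of this. Chromosome 2 had the highest median, 0.06 over 872 genes against -0.29 over all (-0.02 without genes of the copy class), with 32.7% of its genes higher and 31.1% lower. The lowest medians were those of chromosomes 14 (-0.60 over 360 genes), 6 (-0.55 over 496) and 18 (-0.52 over 265). Chromosome 14 had 18.9% of its genes higher and 51.4% lower, and its median without the copy class was -0.67. Copy number of the line was not measured in these files.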

How the data were processed

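Poly(A)-enriched RNA was sequenced in 4 BV2 control and 2 macrophage libraries. Per the labels and the deposited header, the authors' table gives RPKM for 31641 RefSeq transcripts on mm9, and the submitters' processing notes name Bowtie, HOMER, STAR 2.0.3e and edgeR without roles. RPKM times length came out in whole reads for 100% of the lowest values (tolerance 0.1). The authors' peak lists, on mm9, were called per library with HOMER per the file headers, and their score column, deposited as 1 throughout, was not used. Two-sided limma 3.58.1 (R 4.3.3) was run on log2(RPKM + 1) with cell type as the sole term (4 residual degrees of freedom), Benjamini-Hochberg adjusted over 10626 genes at 0.05. Tables and figures used python 3.11.15, pandas 2.3.3, scipy 1.17.1 and matplotlib 3.10.9. The fit was tested on simulated data. Alternatives were 24 settings, 2 of them (reads on gene transcripts, copy class left out) added after seeing the data. Named genes are the 15 largest each way, up to 5 of the largest called members per list (28 pathway and 11 marker lists), 10 shared abundant genes, defining markers, and Htt, Spi1, Cebpa, Cebpb and sex-linked genes. Added after their values were seen were the 25 largest each way without copies, the copy class, and Isg15, Rsad2, Ifit3, Gbp3, Ifih1, Oasl2, Oas1g, Mki67, Mcm5, Ube2c, Apoe, Trem2, C1qb, Itgax, Csf1, Ptgs1, Ciita, Cd74, Spp1, Tfrc, Mgl2, Gpnmb, Mmp14, Il10, Slc1a5, Slc7a1, Cdk4, Ass1, Rxra, Slc16a3, Pcdh7, Nedd4, Flnc and Ddah1. Values of some list members are not reported here. The comparison and lists were chosen with earlier results of these data known.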

Additional observations from a re-analysis of the deposited data

Results flagged for a closer look

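In 3 genes 1 BV2 library stood apart from the other 3 by Dixon's test, which chance does in about 1 group in 20. Lpl was 86.3 RPKM with the wild-type fragment at 24 h. Ddit4 was 11.5 RPKM with the wild-type fragment at the second time, and Tmem119 was 1.86 RPKM with the empty vector at the second time.

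In 2 genes the BV2 libraries of the 2 times lay on opposite sides of the macrophages, a difference between times that was not tested. Ube2c differed from macrophages by -0.87 at 24 h and by 0.97 at the second time. Aldoa, an aldolase gene with near-identical copies, differed by 0.42 and -0.38.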

How the results depend on the processing

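No paired analysis was possible because the macrophage libraries are 1 per genotype, with no number in the labels, and nothing in the labels links a BV2 library to a macrophage library. Against 2574 genes higher, 1655 were higher with a minimum of 5 RPKM (6906 genes tested) and 3911 when scaled to reads on gene transcripts. Leaving out 1 library at a time gave 1809 to 2540 genes higher and 3503 to 4324 lower, the lowest without the wild-type and without the mutant macrophage library. In the 2 fits with a lone macrophage library, it is assumed to vary like the BV2 libraries. The other settings stayed within 1.5 times of both counts. Of 6112 values of 258 named genes, 6016 kept direction and side of the threshold, 64 fell under it, 30 passed it and 2 changed direction. Those were Arpc1b, an actin-branching subunit gene, at 0.47 when scaled to reads on gene transcripts (-0.09 under RPKM), and, with 24 h BV2 libraries, Ube2c at -0.87 (0.05). Medians changed sign for nuclear receptor genes (-0.17 under RPKM, 0.13 under median centring, 0.36 when scaled to reads on gene transcripts), and when scaled in that way for NADPH oxidase and antioxidant genes (-0.38, then 0.18) and huntingtin partners (-0.39, then 0.084). The causes were not tested. A gene of 2000 bases at 1 read reads 0.036 to 0.045 RPKM in BV2 cells and 0.010 to 0.017 in macrophages.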
